A study of Mus musculus with 6 samples.

Results

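The genes described here are the 7 inhibitors of cyclin-dependent kinases (CDKs) and the 3 Gadd45 genes of the mouse, 10 of the 22320 genes in the authors' table of a comparison of testes. They were chosen by symbol, and all 10 were found. Messenger RNA of whole testes was read at postnatal day 1.5 in 2 groups, each of 3 pools of 4 testes, from hybrid mice of C57BL6/J and 129/SvEv background. Arid4bSCKO mice had the genotype Arid4b-/Flox; Amh-cre, with 1 null and 1 floxed allele of Arid4b. Control mice were Arid4b+/Flox; Amh-cre, so both groups carried the floxed allele and the Cre. The Amh promoter drives the Cre in Sertoli cells, which surround the germ cells in the cords of the testis, whereas the null allele is present in every cell of the Arid4bSCKO mice and absent from the controls. The table holds the mean of each group and the authors' test, and values of single pools were not analysed here.

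Cyclin-dependent kinases, bound to cyclins, drive cells from one phase of the cycle to the next. The CIP/KIP proteins, p21 (Cdkn1a), p27 (Cdkn1b) and p57 (Cdkn1c), bind whole cyclin and CDK complexes and above all hold back CDK2. The INK4 proteins, p16 (from Cdkn2a), p15 (Cdkn2b), p18 (Cdkn2c) and p19 (Cdkn2d), bind CDK4 and CDK6 alone and keep the D cyclins off them, which leaves the retinoblastoma proteins active and E2F target genes silent. The GADD45 proteins are small acidic proteins induced by stress and differentiation signals. They bind p21, PCNA and CDK1 and activate the kinase MTK1 (Map3k4), which lies above the p38 and JNK pathways. In the mouse testis, p27 is known for its part in ending Sertoli cell division, and Gadd45g for its part in switching on the sex-determining gene in the fetal gonad.

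Of the 10 genes, 4 rose in the Arid4bSCKO testes: Cdkn2b, Cdkn1a, Gadd45a and Gadd45b. They are printed here with the 250 bases before each RefSeq start (GRCm38.p6, the assembly of the authors' mm10 build), because the group that moved holds members of all 3 families. Gadd45g is added as the family member that was not called. Capitals mark matches to any of 12 motifs on either strand, and the last base lies just before the start.
Cdkn1a first start (chr17:29090729-29090978, plus strand): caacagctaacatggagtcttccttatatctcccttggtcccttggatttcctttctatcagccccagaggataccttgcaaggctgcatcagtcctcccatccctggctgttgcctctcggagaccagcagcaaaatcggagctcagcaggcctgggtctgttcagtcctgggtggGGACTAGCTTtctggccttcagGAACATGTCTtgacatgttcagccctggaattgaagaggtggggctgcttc
Cdkn1a second start (chr17:29093519-29093768, plus strand): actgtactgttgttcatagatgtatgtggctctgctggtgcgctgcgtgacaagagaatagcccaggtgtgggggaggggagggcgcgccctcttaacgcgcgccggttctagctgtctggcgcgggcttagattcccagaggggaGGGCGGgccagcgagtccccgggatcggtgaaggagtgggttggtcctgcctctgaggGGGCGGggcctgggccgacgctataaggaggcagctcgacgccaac
Cdkn2b (chr4:89311033-89311282, minus strand): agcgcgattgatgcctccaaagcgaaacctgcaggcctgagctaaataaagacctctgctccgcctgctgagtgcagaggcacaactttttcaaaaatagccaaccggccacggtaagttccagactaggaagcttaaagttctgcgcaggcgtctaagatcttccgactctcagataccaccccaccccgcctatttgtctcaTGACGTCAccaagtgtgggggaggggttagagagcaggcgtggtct
Gadd45a (chr6:67037408-67037657, minus strand): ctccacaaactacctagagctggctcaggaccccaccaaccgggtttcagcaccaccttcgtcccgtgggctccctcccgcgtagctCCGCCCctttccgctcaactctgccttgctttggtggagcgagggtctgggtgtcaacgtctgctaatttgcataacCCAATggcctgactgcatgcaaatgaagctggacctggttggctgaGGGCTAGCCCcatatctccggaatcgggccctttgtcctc
Gadd45b (chr10:80929841-80930090, plus strand): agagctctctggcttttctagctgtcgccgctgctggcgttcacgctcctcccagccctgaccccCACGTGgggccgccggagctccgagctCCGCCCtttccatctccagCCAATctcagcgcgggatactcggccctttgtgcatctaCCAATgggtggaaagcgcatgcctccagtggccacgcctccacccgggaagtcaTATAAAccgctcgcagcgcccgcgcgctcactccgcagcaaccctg
Gadd45g (chr13:51846425-51846674, plus strand): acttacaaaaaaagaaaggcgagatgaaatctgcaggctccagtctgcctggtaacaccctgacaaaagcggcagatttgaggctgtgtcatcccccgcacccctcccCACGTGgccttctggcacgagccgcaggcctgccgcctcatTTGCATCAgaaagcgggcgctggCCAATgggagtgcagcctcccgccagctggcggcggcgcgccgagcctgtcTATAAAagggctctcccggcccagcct

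The motifs searched were the AP-1 site TGANTCA, the cyclic AMP response element TGACGTCA, CCAAT, the GC box GGGCGG, the TATA box TATAAA, the E-box CACGTG, the E2F site TTTNGCGC, the FOXO site GTAAACA, the ATF4 composite site TGATGNAA, and, by name, the p53 half-site, the NF-kB site and the CArG box. RefSeq windows were matched for 9 of the 10 genes, 12 windows in all. Cdkn2b held the cyclic AMP response element 46 to 39 bases before its start, letters found in 1.55% of 32851 promoter windows of the same length. The first start of Cdkn1a held 2 p53 half-sites, at 73 to 64 and 51 to 42 bases before the start, and Gadd45a held 1 at 40 to 31. Cdkn2d, which was not called, held 1 as well, and the half-site was present in 7.13% of all windows. TATAAA and CACGTG occurred in both Gadd45b and Gadd45g and in no other of the matched members, against 12.4% and 6.02% of all windows. CCAAT was found in Gadd45a, Gadd45b and Gadd45g and in Cdkn1b and Cdkn2d, against 33.8% of all windows. GGGCGG was found in 7 members, 3 of those that rose and 4 that did not, against 32.7% of windows. A window of Cdkn2a, upstream of its downstream start, held the E2F site, found in 1.13% of windows. AP-1, FOXO, NF-kB and CArG letters were in none of the 12 member windows, against 6.75%, 3.17%, 7.25% and 1.47% of all windows. The ATF4 composite site was found in Gadd45g alone, against 3.45% of all windows. None of the 12 motifs was found in all 4 genes that rose. In Cdkn2d the half-site overlaps a GC box. These matches describe letters, not bound sites.

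In genes seen in a single library, 1 read was worth 1.28 to 1.45 normalized counts in Arid4bSCKO and 1.20 to 1.25 in control. The summed group mean levels of all genes, divided by that worth, gave about 17.5 M reads (M, mega) for an Arid4bSCKO library and 18.6 M for a control library. These approximate the reads counted in genes and are not the full sequencing depth. The targeted gene, Arid4b, was lower in Arid4bSCKO, at 8.68 against 10.19 on the log2(normalized count + 1) scale, or 35.1% of control, and the authors' deposited table gives it an FDR of 0.0535. Markers of Sertoli, germ, Leydig, stromal, endothelial and blood cells were all read in both groups, as testis tissue holds them. In whole testes, fewer cells of a type and less RNA per cell cannot be told apart.

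Calls were made by 2 rules. The authors' deposited table gives a false discovery rate (FDR), under which 0 of the 10 genes passed 0.05, where 58 of 22320 genes (0.26%) did. The lowest FDR among the 10 was 0.0737, for Gadd45b. At an unadjusted p below 0.05 as deposited, 4 of the 10 passed, against 20.9% of all genes. The moderated limma test, in which genes of similar level lend each other information on how far pools vary, called the same 4 genes higher and 0 lower at an adjusted p below 0.05. Over all 19095 genes tested it called 13.8%, 7.37% as higher and 6.46% as lower. Of the 10 genes 9 had a positive difference, against 45.8% of all genes, and their family medians were 0.29 for CIP/KIP, 0.16 for INK4 and 1.59 for GADD45, beside -0.04 for all genes. The words "rose" and "called" refer to the moderated test. The 10 genes were picked with earlier results of these data known, so these counts describe them and are no independent evidence.

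Although single pools were not analysed, the group means and the deposited p fix how far a pool can lie from its group's mean. With 3 and 3 values, an equal-variance p below 0.0474 leaves no arrangement in which the groups overlap. That held for the same 4 of the 10 genes, against 20.4% of all 22320 genes and 23.5% of those tested by limma. It restates their deposited p and is no further evidence. For these 4 genes all 3 Arid4bSCKO pools therefore lay above all 3 control pools.

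**Figure D1:**
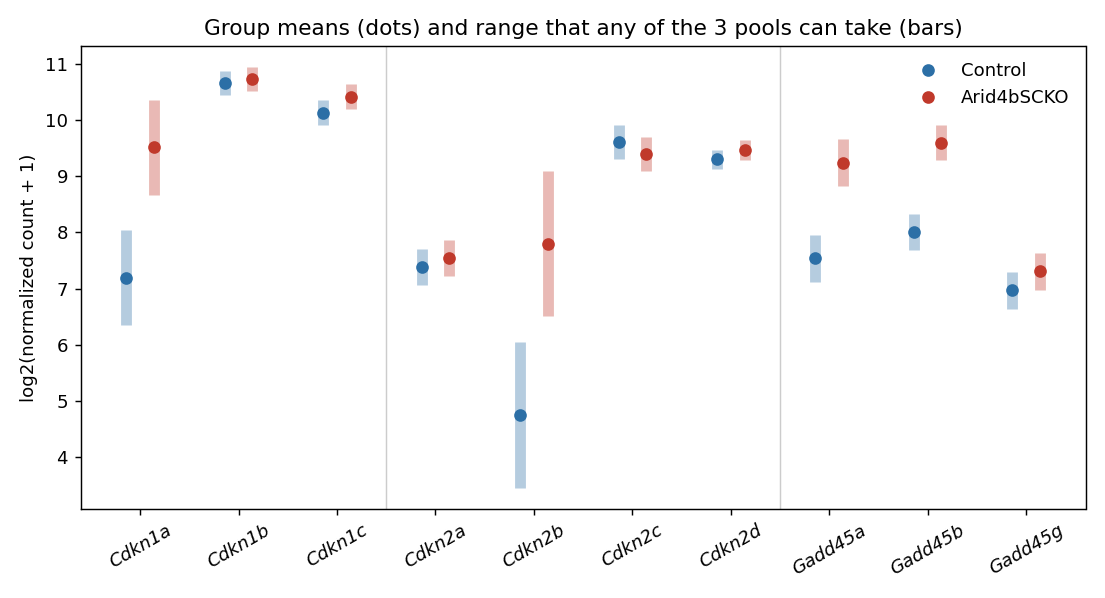
Mean level of each gene in control (blue) and Arid4bSCKO (red) testes, as log2(normalized count + 1), with a bar for the range that any of the 3 pools of the group can take given the deposited p. The bars of Cdkn1a, Cdkn2b, Gadd45a and Gadd45b are apart between the groups, and those of the other 6 genes overlap.

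Among the CIP/KIP genes, Cdkn1a was the one that rose. Cdkn1a (chromosome 17, 29090986 to 29100722, plus strand, mm10) encodes p21, the inhibitor best known as a target of p53. Its mean log2 level was 9.52 in Arid4bSCKO and 7.19 in control, or 731 and 145 normalized counts. No control pool could exceed 8.04 and no Arid4bSCKO pool could fall below 8.67, and the nearest pools of the groups were at least 1.13 log2 units apart. The difference was 2.32 ± 0.42 (SE, 95% interval 1.15 to 3.49), a 5.01-fold change on this scale. The moderated limma adjusted p was 0.00491, and the authors' deposited FDR was 0.115. Without the trend of the variance on level the limma adjusted p was 0.0609. The pools of Cdkn1a spread widely. Their implied SD of 0.52 exceeded that of 98.8% of the 1999 genes within 0.5 log2 units of its level, where the fit expected 0.17. Counting error for its 118 or so reads per control library would give 0.13.

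The other CIP/KIP genes were the abundant ones and differed little. Cdkn1b, which encodes p27, stood at 10.73 in Arid4bSCKO and 10.65 in control, a difference of 0.07 (95% interval -0.22 to 0.37), and its pools could overlap anywhere between 10.51 and 10.86. Cdkn1c encodes p57 and is an imprinted gene read from the maternal allele. Its mean was 10.41 against 10.13, a difference of 0.29 (-0.02 to 0.59, from the deposited p). The moderated limma test gave a narrower interval of 0.07 to 0.51, not adjusted for the number of genes, and an adjusted p of 0.082. A rise of more than 1.29-fold for Cdkn1b or 1.51-fold for Cdkn1c lies outside the intervals from the deposited p.

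In the INK4 family the gene that rose was Cdkn2b (chromosome 4, 89306289 to 89311032, minus strand), which encodes p15, an inhibitor of CDK4 and CDK6 known as a target of TGF-beta signalling. Cdkn2b was the lowest of the 10 genes in control, at a mean log2 level of 4.76, and stood at 7.80 in Arid4bSCKO. These correspond to 26.0 and 222 normalized counts, or about 21.2 reads per control library. No control pool could exceed 6.05 and no Arid4bSCKO pool could fall below 6.51, so the groups were apart, by at least 1.22 log2 units between the nearest pools. The difference of 3.05 ± 0.65 (SE, 95% interval 1.26 to 4.84) was the largest of the 10, an 8.27-fold change with an interval from 2.39-fold to 28.6-fold. It ranked 33 among the differences of all 19095 genes, and that of Cdkn1a ranked 75. The moderated limma adjusted p was 0.0055, and the authors' deposited FDR was 0.131. Without the trend of the variance on level the limma adjusted p was 0.0741. Its implied SD of 0.79 exceeded that of 98.1% of 1215 genes of similar level. Counting error at the control depth would give 0.31. The authors' ratio of medians gave a smaller log2 difference for Cdkn2b, 2.71, and a larger one for Cdkn1a, 2.49.

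Cdkn2a lies next to Cdkn2b on chromosome 4 (89274473 to 89294619, minus strand), and the pair is often lost or silenced together in tumours. Cdkn2a has separate starts for p16 and for ARF, a protein that restrains MDM2, and a value per gene does not tell them apart. Its mean log2 level was 7.54 in Arid4bSCKO and 7.38 in control, a difference of 0.16 (95% interval -0.29 to 0.61). That interval ends below the lower bound of 1.26 for Cdkn2b, but the difference between the neighbours was not tested, since both were read in the same pools. Cdkn2c, the gene of p18, was the one member with a negative difference, at 9.39 against 9.61, or -0.22 (-0.64 to 0.20). Cdkn2d, the gene of the INK4 protein p19, was at 9.46 against 9.30, a difference of 0.16 (-0.08 to 0.40). None of these 3 genes was called, with moderated limma adjusted p-values of 0.578, 0.278 and 0.324.

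Both Gadd45a and Gadd45b rose, and their pools spread less than those of Cdkn1a and Cdkn2b. Their implied SDs were 0.26 and 0.19, where the fit expected 0.17 and 0.15. These exceeded the SDs of 86.7% and 74.9% of genes of similar level. Gadd45a (chromosome 6, 67035096 to 67037407, minus strand), a p53-responsive growth arrest gene, was at a mean log2 level of 9.24 in Arid4bSCKO and 7.54 in control, or 605 and 185 normalized counts. Its control pools could reach 7.96 at most and its Arid4bSCKO pools lay at 8.83 or above, at least 1.11 log2 units apart. The difference was 1.70 ± 0.21 (SE, 95% interval 1.12 to 2.28), or 3.25-fold, with a moderated limma adjusted p of 0.000169 and the authors' deposited table gave an FDR of 0.0861.

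Gadd45b (chromosome 10, 80930091 to 80932204, plus strand), which is known to be induced by NF-kB and TGF-beta, was at 9.59 in Arid4bSCKO and 8.01 in control, or 772 and 256 normalized counts. Control pools could reach 8.32 and Arid4bSCKO pools lay at 9.28 or above, so the groups were at least 1.14 apart. The difference of 1.59 ± 0.16 (SE, 95% interval 1.15 to 2.03), or 3.01-fold, had a moderated limma adjusted p of 8.58e-05, the smallest of the 10 genes. Gadd45g (chromosome 13, 51846675 to 51848474, plus strand) was at 7.31 and 6.97, a difference of 0.34 (-0.11 to 0.79) that was not called (moderated limma adjusted p = 0.239). Its interval lay below those of Gadd45a and Gadd45b, but the difference between the family members was not tested.

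**Figure D2:**
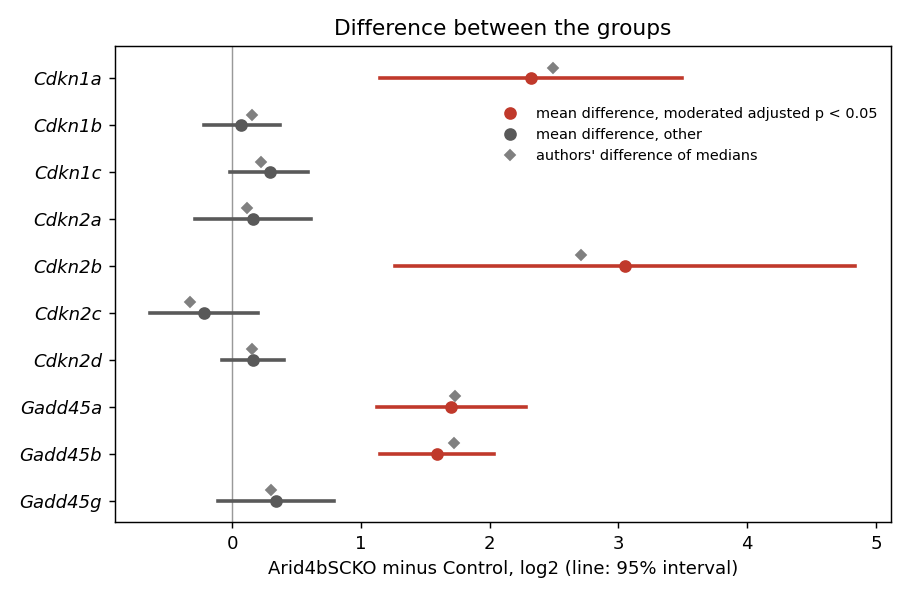
Difference of the group means for each gene (dots, Arid4bSCKO minus control, log2). Lines are 95% intervals from the deposited p, and diamonds are the authors' difference of group medians. The 4 red genes, with differences from 1.59 to 3.05, are those called by the moderated test, and the intervals of the 6 grey genes include 0.

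**Figure D3:**
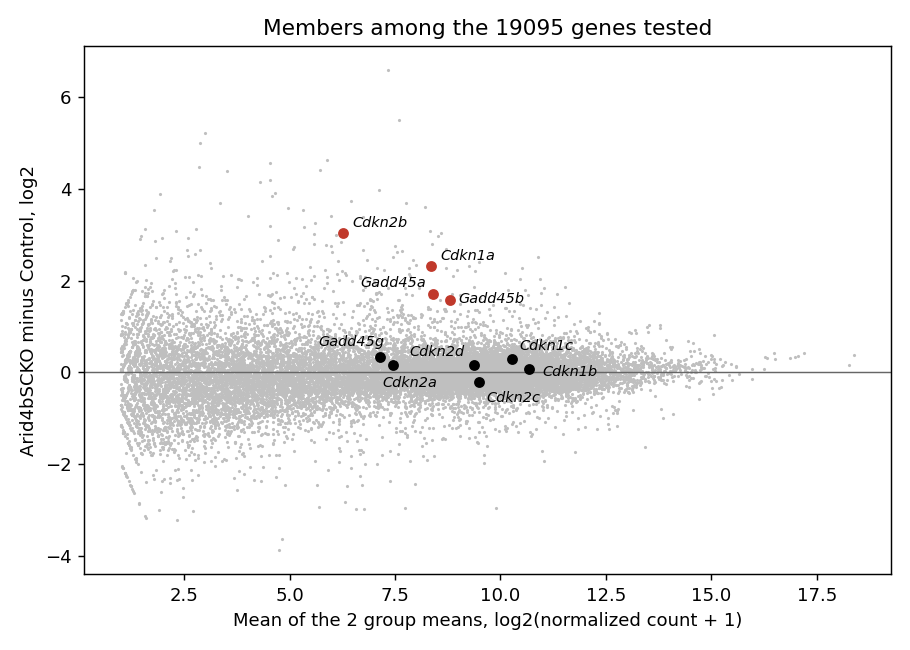
Difference between the groups against mean level for the 19095 genes tested (grey), with the 10 genes marked. The 4 called genes (red) lie between 1.59 and 3.05 on the vertical axis, above the dense band of genes at their levels, and the other 6 (black) lie within it.

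Among all genes tested, 1.85% were called higher by at least 1 log2 unit, as all 4 of these were. By the size of their difference Gadd45a and Gadd45b ranked 196 and 230 of 19095, Cdkn1c, Gadd45g and Cdkn1b ranked 3594, 3099 and 7175, and Cdkn2c was 5679 from the lowest. With the trend of the difference over exonic length, fitted across all genes, removed, the differences of the 4 genes were 2.97 for Cdkn2b, 2.34 for Cdkn1a, 1.65 for Gadd45a and 1.52 for Gadd45b.

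Levels of different genes were compared per kilobase of exon, as normalized counts per kilobase from the group means. Neighbours in the order are called apart where their log2 gap exceeds the sum of the distances that pools of each gene can lie from their mean. In control testes Cdkn1c stood highest, at 549, apart from Cdkn2d at 399. Cdkn2d, Cdkn1b (352) and Cdkn2c (290) were not apart in sequence. Gadd45b (161), Cdkn2a (142), Gadd45g (106) and Gadd45a (105) followed, apart from Cdkn2c but not from each other in sequence. Cdkn1a at 40.8 was apart from Gadd45a, and Cdkn2b at 18.8, the lowest, was not apart from Cdkn1a. In Arid4bSCKO testes no neighbours in the order were apart, and Gadd45b (484 per kilobase) stood next to Cdkn1c (671), Gadd45a (343) next to Cdkn1b (372), and Cdkn2b (160) level with Cdkn2a (159). Gadd45g was then the lowest at 134. Only neighbours were compared, so genes further from each other in the order may still be apart.

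Within each family the make-up of the transcripts shifted. Of the summed CIP/KIP level per kilobase, Cdkn1a made up 4.33% in control and 16.4% in Arid4bSCKO, while Cdkn1b made up 37.4% and 29.8%, and Cdkn1c 58.3% and 53.8%. Cdkn2b made up 2.21% of the INK4 sum in control and 15.7% in Arid4bSCKO, and Cdkn2d remained the largest part, at 46.9% and 44.2%. Summed per kilobase, CIP/KIP transcripts were 1.33 times and INK4 transcripts 1.20 times the control level. GADD45 transcripts were 2.58 times the control level. These shares and ratios come from group means and have no error, and they depend on the exonic lengths of the annotation.

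**Figure D4:**
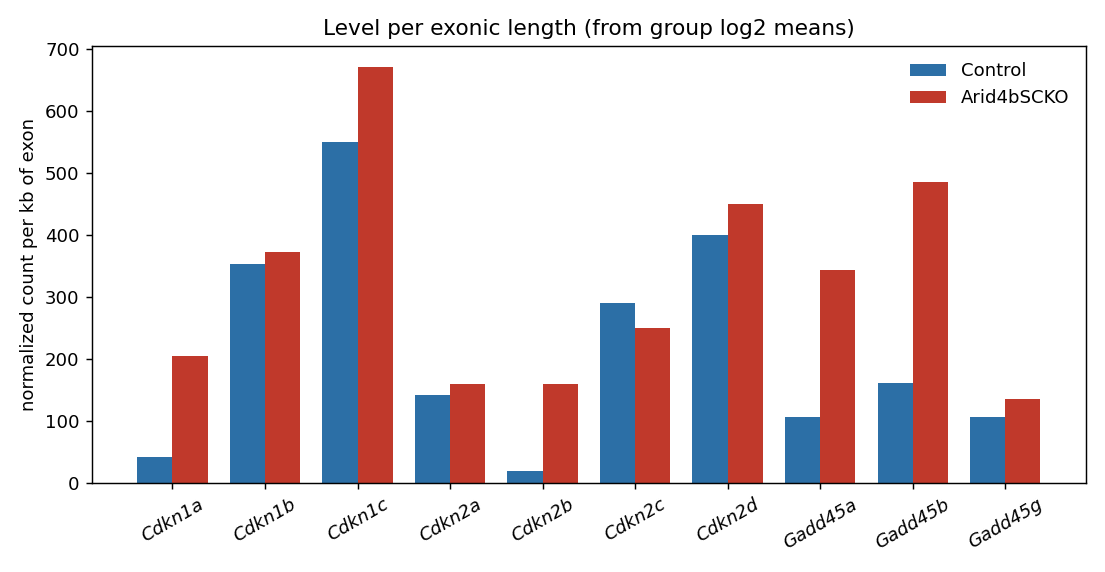
Normalized counts per kilobase of exon for each gene in control (blue) and Arid4bSCKO (red), from the group means of log2 values, without error bars because the shares have none. Cdkn1a and Cdkn2b, the lowest bars in control at 40.8 and 18.8, reach 205 and 160 in Arid4bSCKO, still below Cdkn1c at 671.

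Apart from Cdkn2b beside Cdkn2a, no gene next to a member on its chromosome was called higher. Trp53cor1, a long noncoding RNA gene upstream of Cdkn1a, was at -0.38 (95% interval -1.55 to 0.80), and Rab44 on the other side at -0.16 (-1.03 to 0.70). Beyond Cdkn2b, the transcript AK148321 was at 0.29 (-0.26 to 0.83). Next to Gadd45b, the lamin gene Lmnb2 and the G protein gene Gng7 were called lower, at -0.39 (-0.70 to -0.08) and -0.72 (-0.93 to -0.52). Gng12, before Gadd45a, was at -0.10 (-0.28 to 0.09). On its other side E230016M11Rik overlaps Gadd45a on the opposite strand, and was at 5.60 in Arid4bSCKO and 5.48 in control, below both levels of Gadd45a. Cdkn1a and Cdkn1c also overlap annotated genes on the opposite strand, AC167363.2 and Gm44732, which have no values among the authors' genes. How strand was used in counting is not given in the sources used here. Beside Cdkn1c, 4933417O13Rik was listed at 0 in Arid4bSCKO and at 2.49 in control and was called lower, and Slc22a18, an imprinted neighbour, was at 0.09 (-0.37 to 0.55). The genes nearest Cdkn1b, Cdkn2c, Cdkn2d and Gadd45g, and AF032968 before Cdkn2a, were not called where tested, with differences from -0.38 to 0.46.

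The kinases and cyclins that the inhibitors bind differed little. Of 15 such genes 1 was called lower and 0 higher. The median was -0.04, equal to that of all genes, and 1 had an unadjusted p below 0.05. The gene called was Cdk2, the main kinase held by CIP/KIP proteins, at -0.44 (95% interval -0.71 to -0.17). Cdk7, the CDK-activating kinase, was at 0.26 (-0.05 to 0.57).

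Among pocket protein and E2F genes, the test called 8 of 13 lower and 0 higher, around a median of -0.33. Rbl1, which encodes the pocket protein p107, was at -0.61 (95% interval -0.89 to -0.33), and the E2F repressor gene E2f7 at -0.69 (-1.15 to -0.22). E2f1, E2f2, E2f6, E2f8, Tfdp1 and Tfdp2 were the other 6, of which E2f8 and Tfdp2 were not called with the length trend removed (limma adjusted p = 0.0608 and 0.19). The retinoblastoma gene Rb1 was at 0.22 (-0.35 to 0.79). Of 18 genes of S phase 10 were called lower and 0 higher, the median was -0.38, and no difference was positive. Cdc6, which loads the replicative helicase, was at -0.87 (-1.16 to -0.59), and the helicase gene Mcm7 at -0.46 (-0.63 to -0.28). Cdk1, Ccnb1 and Ccnb2, of the kinases and cyclins above, were at -0.05 (-0.35 to 0.25), 0.01 (-0.43 to 0.45) and -0.02 (-0.45 to 0.41). The part of the inhibitors in the lower levels of E2F and S phase genes was not tested.

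Against 13.8% of all genes called, the genes that control inhibitor turnover included 2 called lower and 0 higher of 13 (median 0.04). They were Dtl, the adaptor of the ligase that degrades p21 in S phase, at -0.66 (95% interval -1.07 to -0.25), and Skp2, the F-box gene for p27 degradation, at -0.34 (-0.65 to -0.03). Skp2 was not called with the length trend removed (limma adjusted p = 0.147). With no minimum level, or with the trend over level removed, 1 of the 2 was called lower. Ddb1, at 0.28 (-0.03 to 0.59), was called higher with the length trend removed (limma adjusted p = 0.0365). Mdm2, whose protein ARF restrains, was at 0.16 (-0.07 to 0.40) and was not called.

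Of 14 GADD45 partners and stress kinase genes, 1 was called higher and 3 lower (median -0.20). Map2k6 and Map2k3 encode the kinases that activate p38. Map2k6 was lower, at -1.17 (95% interval -1.74 to -0.60), and Map2k3 higher, at 0.47 (0.25 to 0.69). Mapk9 and Pcna, the latter also an S phase gene, were the others called lower, Mapk9 not with the length trend removed (limma adjusted p = 0.126). Gadd45gip1, at -0.35 (-0.71 to 0.01), was called lower with that trend removed (limma adjusted p = 0.0453). Map3k4, the kinase that GADD45 proteins activate, was at -0.37 (-0.83 to 0.09) and was not called.

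Transcription factors known to activate the members moved both ways. Of 22 genes 4 were called higher and 4 lower, and the median was 0.17. Klf6, a zinc finger activator of Cdkn1a, was higher at 1.13 (95% interval 0.62 to 1.63), and Cebpa lower at -1.09 (-1.65 to -0.54). Cebpb, Klf4 and Atf4 were the others called higher. Sp1, Brca1 and Foxo1 were the others called lower, although Sp1 and Foxo1 were not with the length trend removed (limma adjusted p = 0.0851 and 0.0792). Smad2, at 0.26 (0.08 to 0.45), was called higher with that trend removed (limma adjusted p = 0.0119). The counts of activators were then 5 higher and 2 lower. Trp53, the gene of p53, was at 0.17 (-0.17 to 0.51) and was not called. The part of p53 in the rise of any member was not tested. Of 16 repressors, which include the Polycomb genes that silence Cdkn2a and Cdkn2b, 1 was called in each direction, with a median of -0.05. Over all genes tested 13.8% were called in either direction. Suz12, a Polycomb subunit gene, was at -0.53 (-0.74 to -0.32), and Myc, known to repress Cdkn1a and Cdkn2b, was higher at 1.36 (0.38 to 2.33).

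Over these pathway groups and the immediate-early genes below, 129 distinct genes were tested, of which 16 were called higher and 28 lower. Of all 19095 genes tested, 7.37% were called higher and 6.46% lower. None of the 129 passed the authors' deposited FDR of 0.05. Without the trend of the variance on level, limma called 2 of the 129, with 0 of the E2F and pocket protein genes, 0 of the S phase genes and 1 of the immediate-early genes among them. Klf4, Klf6 and Egr1 count both as activators and as immediate-early genes, and Pcna and Ccna2 are also in 2 lists each.

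Other sets of genes also differed between Arid4bSCKO and control testes, in both directions. Of 23 immediate-early and stress genes 12 were called higher and 0 lower. Their median was 0.56, and their summed level was 26200 normalized counts in Arid4bSCKO and 15600 in control. The largest difference was that of Atf3, a factor induced by many stresses, with 3.70 (95% interval 2.68 to 4.71). Btg2, an antiproliferative gene with the second smallest moderated p of the list, was at 1.48 (0.88 to 2.09). All 12 macrophage markers in the table were called higher, with a median of 0.94 and summed levels of 7730 and 3530, and none was at 0. C1qa was at 1.20 (0.78 to 1.61) and C1qb at 1.12 (0.63 to 1.60). Of 16 Sertoli cell markers 11 were called lower and 1 higher (median -0.84), with summed levels of 82000 and 137000. Kitl was at -0.81 (-1.30 to -0.33) and Nr5a1 at -0.53 (-0.78 to -0.29). Cldn11 was the marker called higher, at 0.95 (0.32 to 1.58). Sox9, at 0.15 (-0.38 to 0.68), Wt1, Amh and Fshr were not called. The part of these shifts in the rise of Cdkn1a, Cdkn2b, Gadd45a and Gadd45b was not tested. Without the trend of the variance on level, limma called 1 of the macrophage markers and 0 of the Sertoli cell markers. With the length trend removed it called 11 macrophage markers, without Fcer1g, and 10 Sertoli cell markers as lower, without Gata4. With no minimum level these counts were 10 and 9.

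Germ cell markers had 2 of 13 called lower and 0 higher, Dppa4 at -0.86 (95% interval -1.66 to -0.05) and Dnmt3l at -1.29 (-2.52 to -0.06), with a median of -0.29. Myoid and stromal markers had 1 of 9 called in each direction, Tagln higher at 0.67 (0.51 to 0.83) and Nr2f2 lower at -0.38 (-0.72 to -0.03). Nr2f2 was not called with the length trend removed (limma adjusted p = 0.112). Of 7 endothelial markers 1 was called higher, Robo4 at 0.75 (0.22 to 1.28), and Cdh5 was at -0.33 (-0.73 to 0.07). Over all genes tested 7.37% were called higher. None of 7 fetal Leydig and 7 erythroid markers was called by limma, where 1 and 0 had an unadjusted p below 0.05. Thbs2 and Star were at -0.15 (-0.23 to -0.07) and 0.40 (-0.51 to 1.32). The globin genes Hbb-bs and Hba-a2 were at 0.69 (-0.73 to 2.12) and 0.56 (-1.03 to 2.15), and the summed erythroid level was 54400 normalized counts in Arid4bSCKO and 35700 in control.

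**Figure D5:**
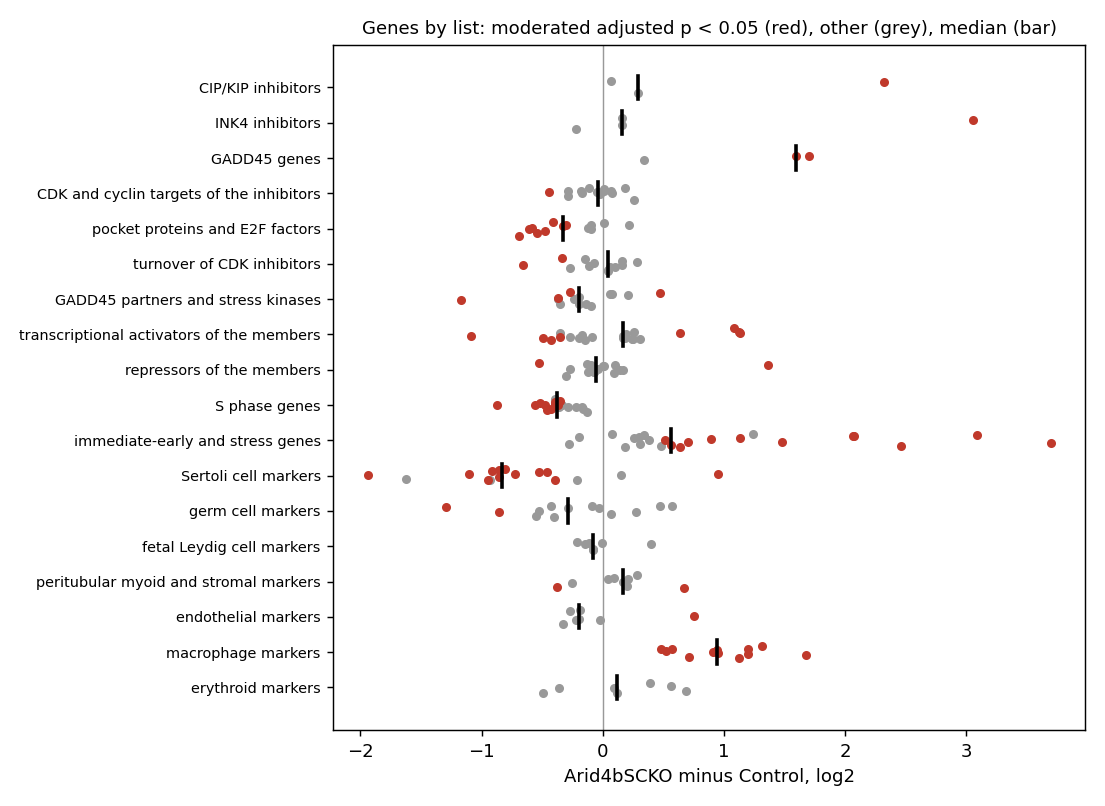
Difference between Arid4bSCKO and control testes (log2) for every tested gene of the 3 families, the pathway lists and the cell type markers, 1 dot per gene, with a bar at each list's median and red for genes called by the moderated test. The GADD45 median of 1.59 is the highest, and those of E2F factors (-0.33), S phase genes (-0.38) and Sertoli cell markers (-0.84) are the lowest.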

How the data were processed

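Per the labels' protocols, DNase-treated total RNA of testis pools gave stranded mRNA libraries (TruSeq, dUTP method) read for 50 bases from both ends. The submitters' processing notes list STAR 2.4 and mm10, while the counter, the annotation release and the normalization method are not stated there. The authors deposited 1 table, which holds, per the file headers and column descriptions, each group's mean log2 normalized count, a log2 ratio of group medians, an unadjusted p-value assuming equal variance, and an FDR.

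The members and lists were chosen with earlier results of these data known. The named genes are the members, Arid4b, the 2 genes of each list with the smallest moderated p, and the nearest gene on each side of a member. Other list genes were named after their values were seen.

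The value 1 added inside the log and the test's scale were checked on 16 genes with 1 read in each control library (p 3.14e-08 deposited, 3.15e-08 computed). The standard error of a difference, its 95% interval and the within-group variance follow from the deposited p with 4 degrees of freedom. Pool limits follow from that variance: a pool lies within the square root of 2/3 of the within-group sum of squares of its mean. The 529 rows with a control of 0 and a value of 0.1 filled in for 1 Arid4bSCKO library were left out. Variances of 19095 genes with a mean log2 level of at least 1 were moderated in limma 3.58.1 (squeezeVar, trend on level, robust) in R 4.3.3, with Benjamini-Hochberg adjustment. The test was tried on simulated data with known changes. Exonic lengths are GENCODE M21 unions of exons, matched for 89.3% of genes. Starts in the table count from 0 and are printed from 1. Whether the pools came from separate litters is not stated, so p-values reflect variation among these pools only, which may be technical.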

Additional observations from a re-analysis of the deposited data

How the results depend on the processing

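The 10 differences kept their sign with the trend over exonic length or level removed, and by the authors' group medians. The other alternatives could not change a sign. The 4 calls held without robust fitting, with no minimum level or one of 5 normalized counts, and with the trend over exonic length or level removed. Keeping the filled-in rows was no check, since the minimum level already left them out. Without the trend of the variance on level, 2 of the 4 remained, Gadd45a and Gadd45b, whose limma adjusted p-values over all settings ran up to 0.04 and 0.0292. Cdkn1a (2.32) and Cdkn2b (3.05) then had adjusted p-values of 0.0609 and 0.0741, and 0.0534 and 0.0657 with robust fitting dropped too, where again 2 remained called. These settings also cut the pathway genes called from 44 to 2 and 6, and all genes called from 2641 to 135 and 237, so the counts of pathway genes rest on that trend. With the length trend removed, which also left out genes without a length (17675 tested), the split of all calls was 1585 higher and 876 lower, against 1408 and 1233. Readjusting the deposited p-values over genes at level 1 or more, or with at least 5 normalized counts, still passed 0 members. The count of 4 without possible overlap of pools could not change at level 1 or more, since all 10 members lie above it. Leaving out single replicates was not run, because values per pool were not analysed here. No paired analysis was possible because the columns carry group means without replicate numbers. Depth limits Cdkn2b most, at about 21.2 reads per control library.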

Other observations

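Genes whose symbols resemble the members but whose products are other proteins were looked at after their values were seen. Cdkn3, which encodes a phosphatase of CDK2, was at 8.33 in Arid4bSCKO and 7.98 in control, a difference of 0.35 (95% interval 0.03 to 0.67) that was not called (limma adjusted p = 0.107). Cdkn2aip, the gene of a partner of ARF, differed by 0.11 (0.05 to 0.18) and Cdkn2aipnl by -0.16 (-0.45 to 0.13), neither of them called. Gadd45gip1, the gene of a mitochondrial ribosome protein that binds GADD45G, was at -0.35 (-0.71 to 0.01, limma adjusted p = 0.0556). With the length trend removed its limma adjusted p was 0.0453.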
